A study of Mus musculus with 6 samples.

Results

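The miR-15 and miR-16 family consists of miRNAs that share the seed AGCAGCA, the bases 2 to 8 through which a miRNA pairs with its target mRNAs. It was followed here in small RNA from mouse brain-derived extracellular vesicles, the small lipid-bound bodies shed by cells. The 6 members, mmu-miR-15a-5p, mmu-miR-15b-5p, mmu-miR-16-5p, mmu-miR-195a-5p, mmu-miR-497a-5p and mmu-miR-322-5p, were chosen by mature name and shared seed from the 1926 features of the deposited table, of which 803 were above 0 in at least 1 library. No measured value enters that choice, but the family was put forward with the difference between the groups already known from these libraries. Its differences are therefore given as a description, and the adjusted p-values printed with them come from the fit over the whole table and support nothing by themselves.

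The CON-BDEV group holds vesicles from matched control mice and the SE-BDEV group those of mice with earlier status epilepticus, a prolonged seizure state, with 3 libraries each at day 10. Strain, age, sex, the way seizures were induced, the event from which the day is counted and whether each library came from its own mice are not given in the labels, so the spread between libraries may be technical. Values are RPM, reads scaled to one total in every library. A higher RPM can stand for more vesicles from one cell type, for more copies in each vesicle or for fewer reads of other miRNAs in that total. These cannot be told apart.

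In this family the members act on overlapping mRNAs because the seed is the same, and the best known targets are cyclins, other drivers of the cell cycle and the survival factor Bcl2. The loss of the hairpins for miR-15a and miR-16 in chronic lymphocytic leukaemia made the family a textbook example of tumour-suppressing miRNAs. miR-16-5p is common in most tissues and in red blood cells, and miR-322-5p is the mouse counterpart of human miR-424-5p.

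The mature sequences below show what the members have in common and where they part. They are RefSeq sequences with the table's build GRCm38.p6, in which all 6 members were matched, printed 5′ to 3′ with the bases 2 to 8 in capitals. Of the 2 relatives at the end, miR-503-5p differs at the last base of the seed and miR-103-3p carries the core of the seed shifted.
mmu-miR-16-5p: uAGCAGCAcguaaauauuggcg
mmu-miR-15a-5p: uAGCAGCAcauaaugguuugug
mmu-miR-15b-5p: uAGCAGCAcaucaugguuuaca
mmu-miR-195a-5p: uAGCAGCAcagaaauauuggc
mmu-miR-497a-5p: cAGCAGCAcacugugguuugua
mmu-miR-322-5p: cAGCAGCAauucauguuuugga
mmu-miR-503-5p: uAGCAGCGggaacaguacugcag
mmu-miR-103-3p: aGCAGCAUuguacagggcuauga

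Beyond the seed the members diverge unevenly. miR-16-5p and miR-195a-5p differed at 2 of 21 aligned positions and miR-15a-5p and miR-15b-5p at 4 of 22, whereas miR-16-5p and miR-497a-5p differed at 11 of 22. No source used here gives how reads that fit more than 1 near-identical miRNA were assigned, so the split between miR-16-5p and miR-195a-5p, and between miR-15a-5p and miR-15b-5p, carries that uncertainty. None of the 6 was in a merged row. Among the RefSeq sequences, 10 mature mouse miRNAs carry the full seed, and the 4 that are not members, miR-195b, miR-6342, miR-6353 and miR-6419, were listed at 0 in all 6 libraries.

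The hairpins of the 6 miRNAs are placed in GRCm38.p6, another build than the mm9 named in the submitters' processing notes. The hairpin of miR-15b (chr3:69009772-69009835, plus strand) and that of miR-16-2 (chr3:69009902-69009996) lie 66 bases apart in an intron of Smc4, a condensin subunit that packs chromosomes for division. The arms of miR-15a (chr14:61632038-61632096, minus strand) and the hairpin of miR-16-1 (chr14:61631880-61631972) lie 65 bases apart in an intron of the noncoding gene Dleu2. Both miR-16 hairpins give the same mature miR-16-5p, so its reads cannot be assigned to a locus, and the arms that would tell them apart, miR-16-1-3p and miR-16-2-3p, were listed at 0 throughout. The hairpins of miR-497a (chr11:70234717-70234800, plus strand) and miR-195a (chr11:70235042-70235135) lie 241 bases apart, and the hairpin of miR-322 (chrX:53054255-53054349, minus strand) lies 200 bases from that of miR-503. GENCODE M21 has no gene other than miRNA genes around the hairpins on chromosomes 11 and X.

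Libraries held 4400167 to 9391887 reads assigned to miRNA features, counted from the step between RPM values, and the smallest listed value was 2 reads. The members rested on 83 reads (miR-322-5p in CON-BDEV 1) to 111369 reads (miR-16-5p in SE-BDEV 1). Counting alone gives errors of 11.0% and 0.30% for these if each read is an independent molecule. Whether reads are independent is not known, since no source used here says whether they were collapsed by molecular identifiers. Both libraries numbered 3 stood apart by miR-24-3p, listed at 0 in the other 4 libraries and at 3544 and 3128 RPM in CON-BDEV 3 and SE-BDEV 3. A listed 0 may therefore be a gap in counting or listing rather than a low level.

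miR-16-5p made up nearly all of the family's RPM in every library. It accounted for 96.1% ± 0.531 of the family's summed RPM among controls and 96.9% ± 0.338 among SE-BDEV libraries (SD, n = 3), and ranked 12 of all features by mean RPM. Its mean over the 6 libraries was 9668 ± 2065 RPM (SD). The next members were miR-497a-5p at 115 ± 25.6, miR-195a-5p at 101 ± 16.6, miR-15b-5p at 61.9 ± 23.7, miR-15a-5p at 39.9 ± 10.3 and miR-322-5p at 26.5 ± 5.71 RPM. miR-16-5p stood clear of the rest, with a lowest value of 6252 RPM against a highest of 138 RPM for miR-497a-5p. Each of the later neighbours in this order overlapped in range with the next one. Within libraries miR-497a-5p exceeded miR-195a-5p in 5 of 6, and each of the other neighbours kept its order in 6 of 6. The 2 products of the chromosome 14 hairpins thus differed widely in RPM, miR-16-5p being at 223 to 297 times miR-15a-5p. However, miR-16-5p has a source on chromosome 3 as well.

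The study set vesicles after status epilepticus beside control vesicles. The 3 members from the miR-15/16 hairpin pairs, miR-16-5p, miR-15a-5p and miR-15b-5p, had higher RPM in every SE-BDEV library than in any CON-BDEV library, by 1.42, 1.56 and 1.86 times on the log2(RPM + 1) scale. The values of miR-195a-5p, miR-497a-5p and miR-322-5p overlapped between the groups. No member passed the threshold of the whole-table fit.

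**Figure D1:**
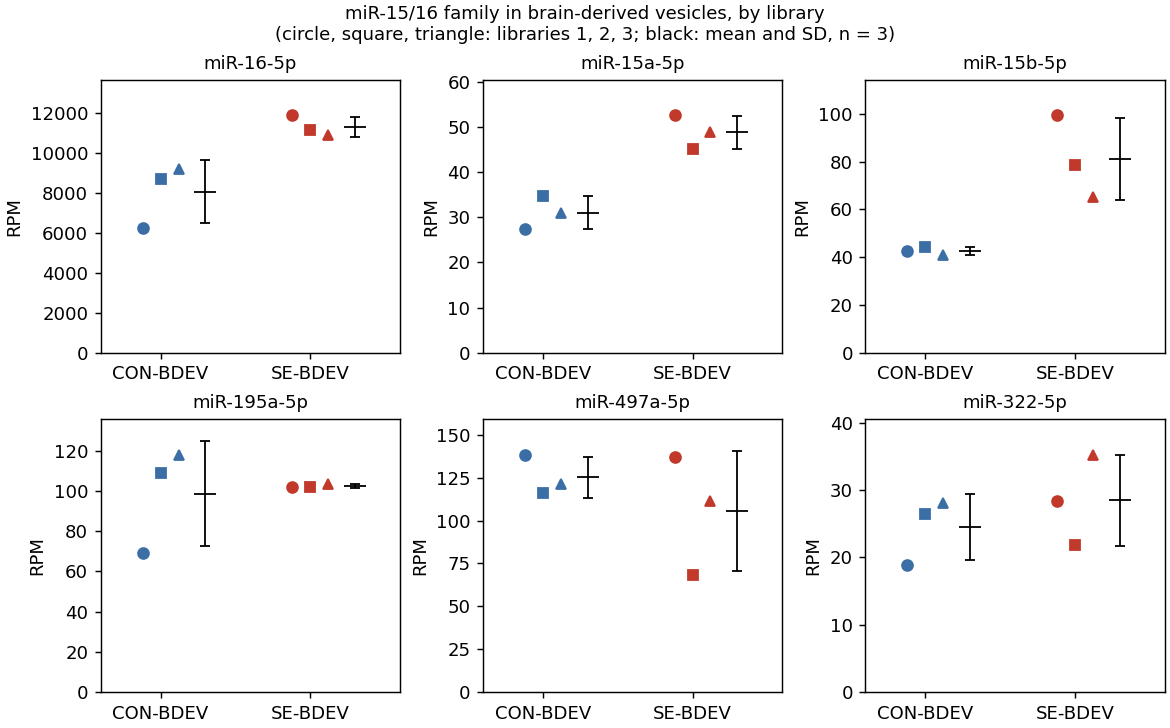
RPM of each family member (vertical axes from 0) in the 3 CON-BDEV libraries (blue) and the 3 SE-BDEV libraries (red), with the mean and SD of each group in black. The groups are apart for miR-16-5p, miR-15a-5p and miR-15b-5p in the upper row and overlap for miR-195a-5p, miR-497a-5p and miR-322-5p in the lower row. Of the 308 tested miRNAs, 10.7% were apart with SE-BDEV higher.

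miR-16-5p, encoded by a hairpin at each of the miR-15/16 loci, stood at 6252, 8673 and 9201 RPM in CON-BDEV 1, 2 and 3 and at 11858, 11129 and 10893 RPM in SE-BDEV 1, 2 and 3. CON-BDEV 1 was the lowest, and the SE-BDEV libraries lay close together above all controls. The group means were 8042 ± 1572 and 11294 ± 503 RPM (SD, n = 3), a log2 difference of 0.51 ± 0.19 (moderated SE). The difference depended in part on the lowest control and was 0.34 without CON-BDEV 1.

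miR-15a-5p, made from the Dleu2 intron beside miR-16-1, stood at 27.3, 34.6 and 31.0 RPM in CON-BDEV 1 to 3 and at 52.5, 45.0 and 48.7 RPM in SE-BDEV 1 to 3. The lowest SE-BDEV value lay above the highest control. Means were 31.0 ± 3.67 and 48.8 ± 3.73 RPM (SD, n = 3), a log2 difference of 0.64 ± 0.29 (moderated SE).

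miR-15b-5p, made from the Smc4 intron beside miR-16-2, stood at 42.7, 44.3 and 40.7 RPM in CON-BDEV 1 to 3 and at 99.3, 78.7 and 65.3 RPM in SE-BDEV 1 to 3. The controls were within a few RPM of each other, and the SE-BDEV libraries were spread more widely above them. Means were 42.6 ± 1.79 and 81.1 ± 17.1 RPM (SD, n = 3). Its log2 difference of 0.89 ± 0.30 (moderated SE) was the greatest of the 6 members.

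miR-195a-5p, which differs from miR-16-5p at so few bases, showed no such separation. It stood at 69.1, 109 and 118 RPM in CON-BDEV 1 to 3 and at 102, 102 and 103 RPM in SE-BDEV 1 to 3. All SE-BDEV values lay between the lowest and the highest control. The log2 difference was 0.09 ± 0.31 (moderated SE), and it turned negative without CON-BDEV 1 (-0.15), with array weights (-0.0645), when totals omitted the 10 most abundant miRNAs (-0.00264), with quantile normalization (-0.0664) and with a GC trend removed (-0.21).

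miR-497a-5p, the cluster partner of miR-195a-5p, stood at 138, 116 and 121 RPM in CON-BDEV 1 to 3 and at 137, 68.1 and 112 RPM in SE-BDEV 1 to 3. SE-BDEV 2 was low and the other 2 SE-BDEV libraries lay among or just under the controls. The log2 difference was -0.30 ± 0.33 (moderated SE), and -0.0141 without SE-BDEV 2.

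miR-322-5p, from the X-linked cluster with miR-503 and miR-351, stood at 18.9, 26.5 and 28.1 RPM in CON-BDEV 1 to 3 and at 28.3, 21.8 and 35.3 RPM in SE-BDEV 1 to 3. The groups overlapped, with a log2 difference of 0.20 ± 0.32 (moderated SE). Without CON-BDEV 1 it was 0.0324, without SE-BDEV 3 it was 0.0403 and without SE-BDEV 2 it was 0.37.

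The whole-table fit used limma on log2(RPM + 1) for the 308 miRNAs whose mean reached 10 RPM, all 6 members among them, and called an adjusted p under 0.05. It called 0 of the 6 members, against 3 of the 308, or 0.974% (limma adjusted p of the members from 0.344 for miR-15b-5p to 0.933 for miR-195a-5p). With the replicate number as a block, limma called 10 miRNAs and again 0 members. Among the 301 miRNAs above 0 in every library it called 4 with the block and 4 without it. At an unadjusted p under 0.05 it held miR-15b-5p, miR-16-5p and miR-15a-5p, all higher in SE-BDEV, against 8.12% of tested miRNAs in that direction. Of the 6 members 5 were higher in SE-BDEV, against 57.5% of all tested, with a median log2 difference of 0.36 against 0.0606. SE-BDEV lay above CON-BDEV without overlap for 3 of 6 members and for 10.7% of all tested. These shares are set beside each other with nothing drawn from them, because the family was proposed with this contrast known.

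**Figure D2:**
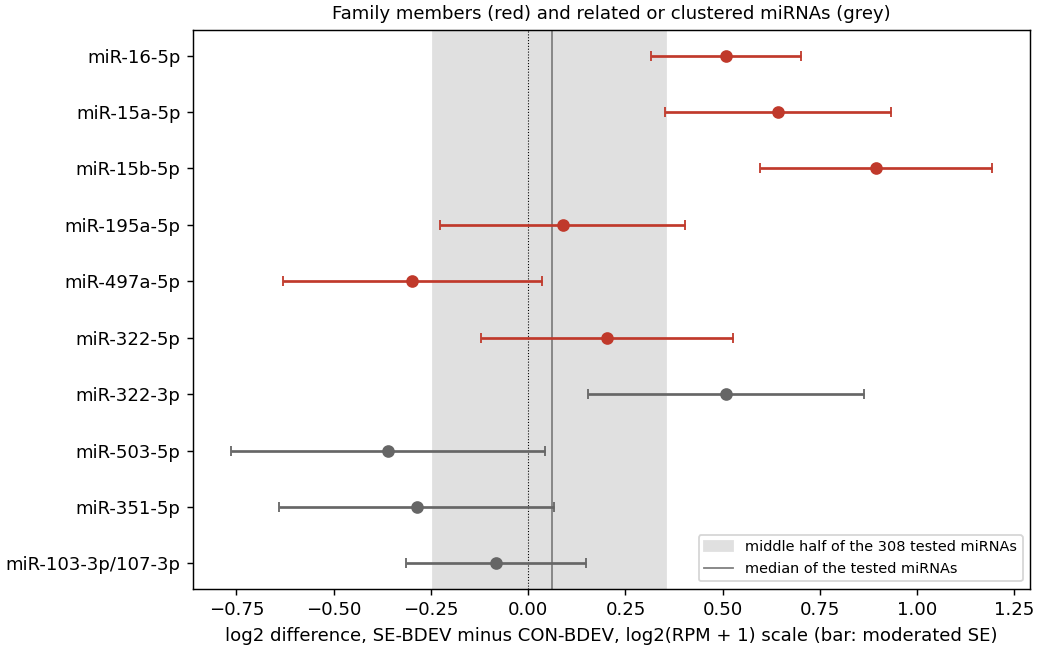
Log2 difference between SE-BDEV and CON-BDEV with its moderated SE for the 6 family members (red) and 4 related or clustered miRNAs (grey), over the interquartile range of the 308 tested miRNAs (grey band). miR-16-5p, miR-15a-5p and miR-15b-5p sit at 0.51, 0.64 and 0.89, and the other 3 members between -0.30 and 0.20.

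In the authors' deposited table the log2 fold changes were 0.85 for miR-15b-5p, 0.56 for miR-15a-5p, 0.41 for miR-16-5p, 0.12 for miR-322-5p, -0.0327 for miR-195a-5p and -0.34 for miR-497a-5p. The authors' deposited table gave none of the members an adjusted p under 0.05, the lowest being 0.139 for miR-15b-5p, against 1.12% of the 625 miRNAs with an adjusted p. Of the members, miR-15b-5p alone in the authors' deposited table had an unadjusted p under 0.05, against 6.52% of miRNAs.

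The separation of the 3 higher members depended on the scaling. With median-of-ratios scaling miR-15a-5p and miR-15b-5p stayed apart and miR-16-5p overlapped (9.09% of all tested were apart in that direction under this scaling), and when totals omitted the 10 most abundant miRNAs all 3 stayed apart (10.1%). With quantile normalization 0 members were apart, against 8.12%. With a GC trend over mature sequences removed, 0 members were apart, against 7.41%, and the log2 differences were 0.28 for miR-16-5p, 0.29 for miR-15a-5p and 0.54 for miR-15b-5p. After that correction the median log2 difference was -0.0442 over the 270 miRNAs with a GC value, against 0.0606 over the 308 tested without it. The correction also centred every library on the same mean, so it rescales as well as removes a trend. The GC content of the mature sequence was 45.5% in miR-16-5p, 40.9% for miR-15a-5p, miR-15b-5p and miR-322-5p and 42.9% for miR-195a-5p, and was highest in miR-497a-5p. The part of GC content in these differences was not tested beyond this.

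Ratios between members within a library do not change when all values of a library are multiplied by one factor, though quantile normalization and GC trend removal can change them. The ratio of miR-16-5p to miR-195a-5p was 90.5, 79.5 and 77.9 in CON-BDEV 1 to 3 and 116, 109 and 105 in SE-BDEV 1 to 3. For miR-15a-5p to miR-195a-5p it was 0.395, 0.317 and 0.263 in CON-BDEV and 0.516, 0.441 and 0.471 in SE-BDEV. For miR-15b-5p to miR-195a-5p it was 0.618, 0.406 and 0.345 in CON-BDEV and 0.976, 0.771 and 0.632 in SE-BDEV. All 3 ratios to miR-195a-5p were thus higher in each SE-BDEV library than in any control. Over all tested miRNAs divided by miR-195a-5p, these members included, the share was 8.47%.

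Set against miR-497a-5p, the same 3 members were again apart. The mean ratio to miR-497a-5p went from 65.3 ± 17.5 to 116 ± 41.6 for miR-16-5p, from 0.251 ± 0.0509 to 0.494 ± 0.148 for miR-15a-5p and from 0.342 ± 0.0370 to 0.823 ± 0.297 for miR-15b-5p (SD, n = 3). Over all tested miRNAs divided by miR-497a-5p, these members included, 21.2% were apart in that direction, and SE-BDEV 2, where miR-497a-5p was low, gave the highest ratio for each.

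Ratios to miR-322-5p overlapped between the groups for all 3, where 6.19% of all tested miRNAs divided by it were apart with SE-BDEV higher. For miR-16-5p they were 331, 327 and 327 in CON-BDEV 1 to 3 and 419, 510 and 309 in SE-BDEV 1 to 3. SE-BDEV 3, which had the highest miR-322-5p, fell under the controls. These ratios were formed after the members' values had been seen and were not tested.

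**Figure D3:**
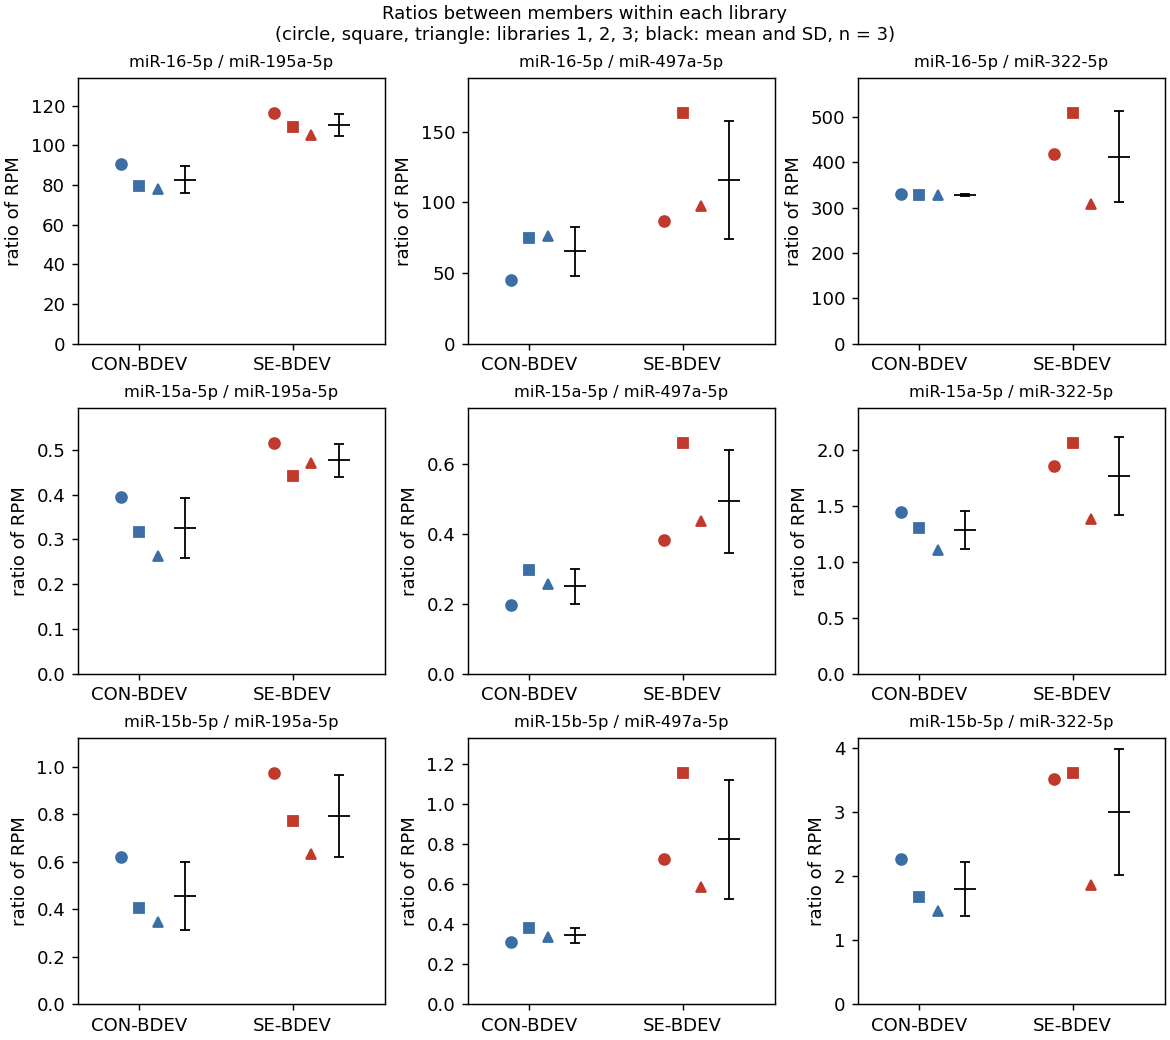
Ratio of RPM between members within each library (vertical axes from 0), with miR-16-5p, miR-15a-5p and miR-15b-5p in rows over miR-195a-5p, miR-497a-5p and miR-322-5p in columns, and the mean and SD in black. SE-BDEV (red) lies above CON-BDEV (blue) without overlap in the left and middle columns, and the groups overlap in the right column.

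The products of the miR-15/16 hairpin pairs differed in RPM among themselves, with ratios that overlapped between the groups. miR-15b-5p was at 1.57, 1.28 and 1.31 times miR-15a-5p in CON-BDEV 1 to 3 and at 1.89, 1.75 and 1.34 times in SE-BDEV 1 to 3, ranges that overlapped. The ratio of miR-16-5p to miR-15a-5p averaged 259 ± 34.5 over controls against 232 ± 13 after status epilepticus, and that of miR-16-5p to miR-15b-5p averaged 189 ± 40.1 against 143 ± 23.7 (SD, n = 3), both with overlap. The pair from chromosome 11 varied within both groups, the ratio of miR-195a-5p to miR-497a-5p running from 0.499 to 0.976 in CON-BDEV and from 0.744 to 1.5 in SE-BDEV.

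Of the 7 other strands of the same hairpins, 4 were listed at 0 in all libraries, miR-195a-3p was at 1.10 to 1.93 RPM and miR-15b-3p reached 0.912 RPM. miR-322-3p was about as abundant as its partner strand. It stood at 13.9, 22.8 and 28.4 RPM in CON-BDEV 1 to 3 and at 33.2, 37.2 and 21.9 RPM in SE-BDEV 1 to 3, with a log2 difference of 0.51 ± 0.36 (limma adjusted p = 0.617). The ratio of miR-322-3p to miR-322-5p was 0.735 to 1.01 in CON-BDEV and ran from 0.622 in SE-BDEV 3 to 1.71 in SE-BDEV 2.

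Among relatives with part of the seed, 2 rows were above 0 and neither was called. The merged row of miR-103-3p and miR-107-3p, miRNAs linked to metabolism whose seed is shifted by a base, averaged 3896 ± 211 RPM over controls against 3749 ± 892 RPM over SE-BDEV libraries (SD, n = 3), with a log2 difference of -0.0824 (limma adjusted p = 0.921). miR-503-5p, whose sequence parts from the family at the last base of the seed, was at 19.3, 9.94 and 11.2 RPM in CON-BDEV 1 to 3 and at 9.26, 10.8 and 9.63 RPM in SE-BDEV 1 to 3. The groups overlapped, with CON-BDEV 1 as the high value.

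Of the 11 listed partners of miR-322 in its cluster, 8 were above 0 in at least 1 library, 2 passed the filter and 0 were called. Those tested, miR-503-5p and miR-351-5p, had log2 differences of -0.36 and -0.29, lower in SE-BDEV, while miR-322-5p was at 0.20. CON-BDEV 1 held the highest values of both, 142 RPM for miR-351-5p against 54.8 to 92.0 RPM in the other libraries. Below the filter, miR-351-3p ranged over 5.03 to 6.82 RPM among controls against 3.60 to 3.94 RPM among SE-BDEV libraries, without overlap, as were 1.62% of the 495 miRNAs above 0 and under the filter in that direction.

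Markers of brain cells, neuronal and glial, are given beside the family. Of 7 such markers 6 were above 0, and their summed level was 26503 to 31462 RPM among controls against 23216 to 41644 RPM among SE-BDEV libraries, with overlap. miR-338-3p, of oligodendrocytes, was at 110, 144 and 128 RPM in CON-BDEV 1 to 3 against 207, 160 and 275 RPM in SE-BDEV 1 to 3. Its log2 difference was 0.72 ± 0.32 (moderated SE, limma adjusted p = 0.438), and the groups did not overlap. miR-129-5p, of neurons, was at 3268, 2720 and 3019 RPM in CON-BDEV 1 to 3 against 4985, 3735 and 4255 RPM in SE-BDEV 1 to 3. Its log2 difference was 0.52 ± 0.22 (moderated SE, limma adjusted p = 0.438), also without overlap. Both thus lay higher in the SE-BDEV libraries, as miR-16-5p, miR-15a-5p and miR-15b-5p did, and neither was called. SE-BDEV lay above CON-BDEV without overlap for 10.7% of all tested miRNAs. The neuronal miR-124-3p, at 6654 to 9540 RPM, overlapped between the groups, as did miR-9-5p, miR-128-3p and miR-138-5p. The oligodendrocyte miR-219a-5p was listed at 0. Outside the list, miR-219a-2-3p had a log2 difference of 0.19 ± 0.35 (moderated SE, limma adjusted p = 0.882). The part of brain cell types in the values of the family was not tested.

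Because miR-16-5p is abundant in blood, markers of blood cells are given beside it. Of these, miR-451a, miR-144-5p and miR-144-3p had a value of 0 throughout, which may be a gap in counting or listing. The other 3 rows of the list were above 0, and the summed level of the list was 154 to 280 RPM in CON-BDEV and 165 to 197 RPM in SE-BDEV, with overlap. Within it the merged miR-486a-5p/486b-5p was at 83.6 to 199 RPM in CON-BDEV and 102 to 111 RPM in SE-BDEV, and miR-150-5p, of lymphocytes, at 63.8 to 88.5 and 49.3 to 81.2 RPM. miR-223-3p, of myeloid cells, was between 0 and 3.41 RPM among controls against 4.30 to 7.21 RPM among SE-BDEV libraries, without overlap, as were 5.25% of the miRNAs above 0 and under the filter with SE-BDEV higher. Outside the list, miR-142a-5p, of hematopoietic lineage, had a log2 difference of 1.85 ± 0.32 (moderated SE, limma adjusted p = 0.00761). Its partner strand miR-142a-3p was at 1.37 ± 0.48 (moderated SE, limma adjusted p = 0.344). The part of blood cells in the values of the family was not tested.

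The likeness of patterns was measured as the root-mean-square difference in log2(RPM + 1) over the 6 libraries, each miRNA centred on its own mean, among 302 tested miRNAs outside the family. Nearest to miR-16-5p were miR-25-3p (0.134), the merged miR-199a-3p/199b-3p (0.134) and miR-1839-5p (0.137), against a median of 0.477. miR-25-3p, for example, was at 18.9, 20.4 and 29.3 RPM in CON-BDEV 1 to 3 and at 34.0, 32.0 and 29.8 RPM in SE-BDEV 1 to 3. Within the family miR-15a-5p was as near (0.137), followed by miR-195a-5p (0.224), miR-322-5p (0.255), miR-15b-5p (0.299) and miR-497a-5p (0.548). Nearest to miR-497a-5p, the second most abundant member, were miR-764-3p (0.112), miR-30c-2-3p (0.157) and miR-370-5p (0.157), which share its low value in SE-BDEV 2. Its cluster partner miR-195a-5p was farther from it (0.470) than the median miRNA (0.459). All these distances rest on the same 6 libraries and their depths.

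The order of the members by log2 difference was much the same in the settings that were run. miR-16-5p, miR-15a-5p and miR-15b-5p were higher in SE-BDEV under every alternative that tested them, from 0.28 to 0.64, from 0.29 to 0.72 and from 0.54 to 1.04. Many of these could not have changed that sign. Filters, the replicate block and the limit to miRNAs detected in every library left the log2 differences unchanged. Another constant added to RPM, array weights or left-out libraries could not reverse members whose SE-BDEV values all exceeded the controls. Rescaling, quantile normalization, GC trend removal and the authors' comparison could have, and the values were lowest with the GC trend removed. No alternative called a member. The lowest adjusted p was 0.0576, for miR-15b-5p with array weights.

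**Figure D4:**
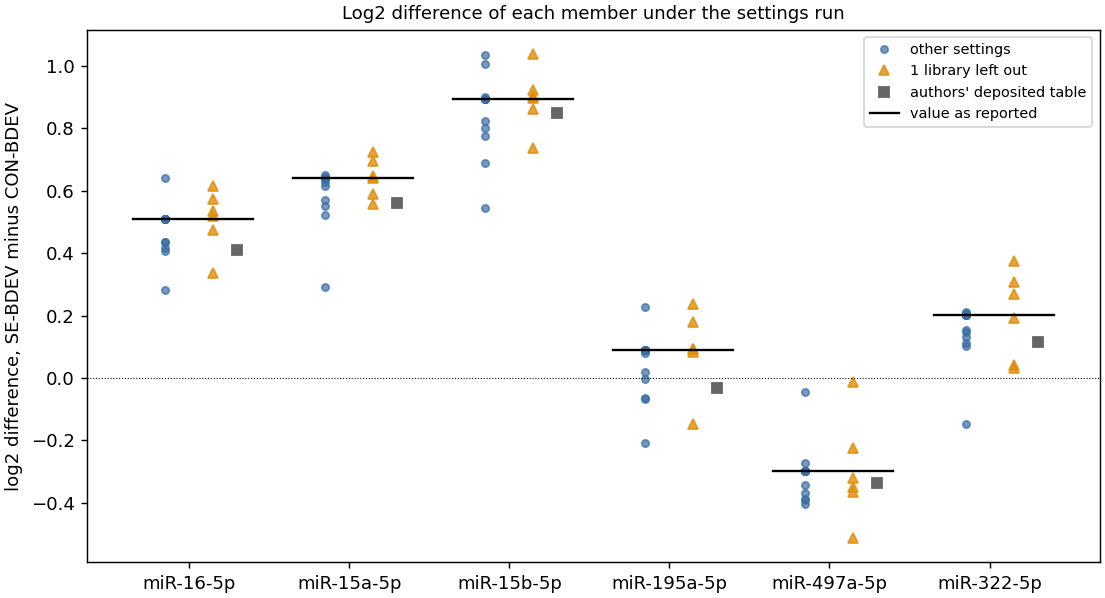
Log2 difference between SE-BDEV and CON-BDEV of each member as reported (black line), with 1 library left out (orange), under the other settings (blue) and in the authors' deposited table (grey). miR-16-5p, miR-15a-5p and miR-15b-5p stay above 0, miR-497a-5p stays below 0, and miR-195a-5p and miR-322-5p lie on both sides of it.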

How the data were processed

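The authors deposited RPM values for 6 libraries and a table of their own comparison, holding a normalized signal averaged over libraries, log2 fold changes with errors, a test score and p-values. DESeq2 and the build mm9 are named in the submitters' processing notes. No source used here names the aligner or counter. RNA was purified with a miRNeasy Micro kit and libraries were made with a QIAseq miRNA kit, per the labels. RPM values were whole multiples of 1 step per library (tolerance 0.001 step) but none equalled 1 step, so no count model was fitted. Differences were fitted with limma 3.58.1 (R 4.3.3, statmod 1.5.0) on log2(RPM + 1), two-sided, with intensity trend and robust empirical Bayes, a mean of 10 RPM or more and Benjamini-Hochberg adjustment over all 308 miRNAs. This understates changes of low miRNAs. The fit was tested on simulated data with planted changes larger than those of any member, which does not show its power for changes of their size. Members and lists were chosen with earlier results of these data known. All members were named, with list entries above 0 and the 3 nearest patterns of the 2 most abundant members. Replicate numbers are shared between groups. Deviations of same-numbered libraries correlated at 0.216, 0.202 and 0.462, and at -0.0639, -0.0614 and -0.0806 without miR-24-3p. The same-numbered libraries thus passed the criterion for pairing (every correlation above 0.1) through that miRNA. With miR-24-3p, differently numbered libraries correlated from -0.41 to 0.336, so values above 0.1 were not limited to the same number. Mature GC was available for 87.7% of tested miRNAs.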

Additional observations from a re-analysis of the deposited data

How the results depend on the processing

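The fit called 3 miRNAs. A stricter filter, at 100 RPM, called 1 of 129, the replicate block 10, and array weights 6. Among miRNAs detected in every library the count was 4 with the replicate block and 4 without it. There were 7 in the authors' deposited table, and the count was 2 to 8 with 1 library left out, the 8 without CON-BDEV 2. The count of called members was 0 under every alternative run, the replicate block included. miR-195a-5p changed sign when totals omitted the 10 most abundant (-0.00264), with quantile normalization (-0.0664), with array weights (-0.0645), with a GC trend removed (-0.21) and in the authors' deposited table (-0.0327), and ran from -0.15 to 0.24 with 1 library left out. miR-322-5p changed sign with the GC trend removed (-0.15). The stricter filter tested fewer miRNAs, and for the rest the cause was not tested. Removal of the GC trend, the run without both libraries numbered 3 and the limit to miRNAs detected in every library were chosen after seeing the data. The planned edgeR and DESeq2 fits were not run, because values of 1 read are not listed. miR-15a-5p, miR-15b-5p and miR-322-5p were not tested under the stricter filter. Precision is limited by 3 libraries in each group and, for the low members, by reads, as few as 83 for miR-322-5p.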
